A study of Mus musculus with 2 samples.

Results

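Neurotrophic factors and their receptors are described here through 10 genes: the ligands *Bdnf* and *Cntf*, the GDNF family receptors *Ret*, *Gfra1* and *Gfra2*, the neurotrophin receptors *Ntrk2*, *Ntrk3* and *Ngfr*, and *Cntfr* and *Lifr*, receptors of ciliary neurotrophic factor and leukemia inhibitory factor. They were chosen by symbol, and all 10 are among the 28692 genes of both count tables. Neurotrophic factors are secreted proteins that keep neurons alive and shape their growth. GDNF family ligands bind a GFRA coreceptor that hands the signal to the kinase RET, neurotrophins bind TRK kinases and the shared receptor NGFR, and ciliary neurotrophic factor binds CNTFR, which recruits LIFR and IL6ST. In the brainstem, cholinergic motor neurons are a classic target of these factors.

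The cells came from the ventral parafacial region of wild-type C57BL6/J mice aged 10 days, captured as single cells and counted as unique molecular identifiers (UMIs) from the 3′ ends of polyA RNA. An untreated library and a library from mice given 4OH-tamoxifen, 0.2 mg per day for 3 days, were studied, with tissue of 8 mice (4 males, 4 females) pooled in each. Each condition has 1 library, and the labelled batch (1 and 2) coincides with it, so treatment, batch and library cannot be told apart. The untreated library holds 3767 barcodes and 18496942 UMIs and the 4OH-tamoxifen library 10241 barcodes and 34704167 UMIs, with 40 barcode sequences in both.

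After filtering, 3339 untreated and 8558 4OH-tamoxifen cells fell into 20 clusters, and 4610 cells (38.7%) were gated into 9 classes by 9 marker genes. A glial, microglial or endothelial cell entered a class when its cluster had that identity and it held at least 1 UMI of the gate gene and none of the competing gates. A cell of a neuronal cluster needed 1 UMI of *Chat*, *Slc17a6* or *Slc32a1*, or 2 of *Nmb*, with 0 of the competing neuronal gates and 0 of the 5 non-neuronal gates. The members played no part in clustering or gating. The *Chat* class (cholinergic) held 11 untreated and 46 4OH-tamoxifen cells, the *Nmb* class (the peptide that marks retrotrapezoid neurons) 10 and 33, the *Slc17a6* class (glutamatergic neurons without an *Nmb* UMI) 5 and 43, and the *Slc32a1* class (inhibitory) 32 and 169. The *Aqp4* class (astrocytes) held 541 and 1278 cells, the *Pdgfra* class (oligodendrocyte precursors) 186 and 587, the *Mog* class (oligodendrocytes) 165 and 670, the *C1qa* class (microglia) 178 and 309, and the *Cldn5* class (endothelial cells) 141 and 206. Neuron classes were thus small: the untreated *Slc17a6* class has the fewest cells, and the untreated *Nmb* class the fewest UMIs (55612, against 62766 in the untreated *Slc17a6* class).

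Levels are UMIs summed over the cells of a class on the counts-per-million scale (CPM), with the untreated value first. All 5 cholinergic markers had UMIs in the *Chat* class, all 6 retrotrapezoid markers in the *Nmb* class, all 4 inhibitory markers in the *Slc32a1* class, and the full lists of 7 astrocyte, 6 precursor, 7 oligodendrocyte, 6 microglial and 6 endothelial markers in their classes, in both libraries. These lists include gate genes such as *Chat*, *Nmb*, *Slc32a1*, *Aqp4*, *Mog*, *C1qa* and *Cldn5*, whose UMIs in their own class follow from the gate. The *Slc17a6* class is less distinct: 4 of its 5 untreated and 38 of its 43 4OH-tamoxifen cells lay in the cluster led by *Nmb* and *Gal*, and *Slc5a7*, a cholinergic marker, stood at 462 and 161 CPM. The *Cldn5* class also held 6 of 6 pericyte markers, summing to 2300 and 2422 CPM with *Rgs5* the most abundant (1341 and 1332). In the *Chat*, *Nmb*, *Slc17a6* and *Slc32a1* classes 5 or 6 of the 7 astrocyte markers had UMIs in each library, with *Aldoc* the most abundant (529 to 965 CPM) and *Aqp4* at 0 by the gate. Over those classes the list summed to between 765 and 1444 CPM, against 700 and 1232 CPM in microglia. The oligodendrocyte list, 5 or 6 of 7 with *Mog* at 0 by the gate, summed there to between 1007 and 1752 CPM, against 1902 and 2882 CPM in microglia. The part of such RNA in the values below was not tested.

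**Figure D1:**
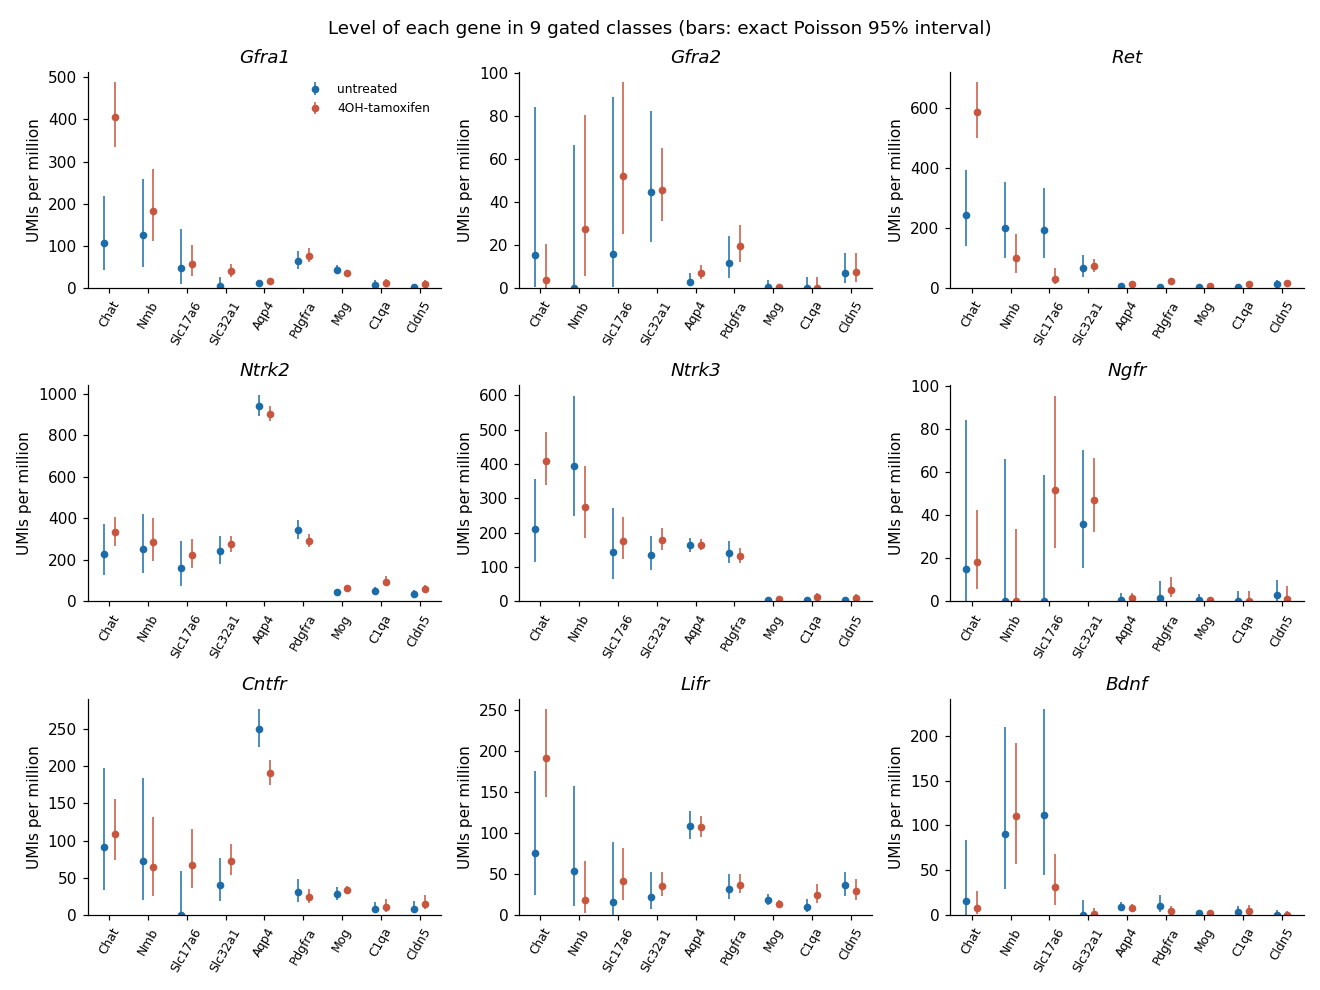
Counts-per-million (CPM) in each of 9 gated classes (horizontal axis) for the 9 genes with UMIs in a class, in the untreated (blue) and 4OH-tamoxifen (red) library; points are the summed level and bars the exact Poisson 95% interval. *Ret* and *Gfra1* stand highest in the *Chat* class of the 4OH-tamoxifen library, *Ntrk2* and *Cntfr* in the *Aqp4* class of both, and *Bdnf* in the *Nmb* and *Slc17a6* classes.

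Brackets below hold exact Poisson 95% intervals, which cover counting error only. For a count of 0 the level that 3 counts would give is stated as the limit, which is lower than the upper end of that interval. Because UMIs come from transcript ends and isoforms are summed, levels are compared between classes and not between genes.

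*Bdnf* (chromosome 2, 109674700 to 109727007, GRCm38), the neurotrophin that activates NTRK2, was a gene of glutamatergic neurons. It reached 89.9 CPM [29.2 to 210] and 110 CPM [56.9 to 192] in the *Nmb* class, from 5 and 12 UMIs. The *Slc17a6* class gave 112 CPM [44.8 to 230] and 31.2 CPM [11.4 to 67.9], and the intervals of these classes overlap in both libraries. Inhibitory neurons held 0 untreated UMIs (3 counts would be 13.4 CPM), and 1 UMI (1.47 CPM) in the 4OH-tamoxifen library. The *Chat*, *Aqp4*, *Pdgfra*, *C1qa* and *Mog* classes followed with mean levels from 11.2 down to 2.22 CPM, each overlapping its neighbour in the order, and endothelial cells had 0 UMIs in both libraries (limits 4.17 and 3.77 CPM). A *Bdnf* UMI was found in 3 of 10 and 8 of 33 *Nmb* cells (30.0% and 24.2%), against 1.12% and 0.971% of microglia, whose median depth was 4014 and 2255 UMIs per cell against 5110 and 3146. After every cell was thinned to 2000 UMIs, which left out 0 and 6 *Nmb* cells and 7 and 103 microglia, these shares were 10.0% and 7.41% against 0.585% and 0.485%. The thinned shares rest on 1 and 2 *Nmb* cells and on 1 microglial cell in each library, and their intervals overlap in both. Of the *Bdnf* exon bases, 14.4% overlap an antisense transcript that is not in the count table.

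*Cntf* (chromosome 19, 12763660 to 12765632), a cytokine made by astrocytes and Schwann cells, was not detectable at this depth. A single UMI was counted over all barcodes of both libraries and 0 in the 9 classes, where the limit in astrocytes is 1.98 and 1.14 CPM. In its annotation 847 of 1073 exon bases (78.9%) are shared with *Zfp91* on the same strand, a gene with 5411 UMIs over all barcodes, and whether reads of *Cntf* were lost to that overlap was not tested. *Cntf* was left out of all tests by the filter on low counts, so 9 of the 10 members were tested.

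*Ret* (chromosome 6, 118151745 to 118197718), the kinase shared by GDNF family ligands, was a neuronal gene. Its level was 242 CPM [138 to 393] and 587 CPM [500 to 685] in the *Chat* class, 198 and 101 CPM in the *Nmb* class, 191 and 31.2 CPM in the *Slc17a6* class, and 67.1 and 72.3 CPM in the *Slc32a1* class. Untreated intervals of the *Chat*, *Nmb* and *Slc17a6* classes overlap, whereas in the 4OH-tamoxifen library the *Chat* class stood clear of the next. The inhibitory class stood clear of the endothelial class, the highest non-neuronal class by the mean of both libraries at 13.9 and 15.1 CPM, in each library. *Ret* was found in 4 of 11 and 26 of 46 *Chat* cells (36.4% and 56.5%), 30.0% and 43.2% after thinning. Microglia gave 1.12% and 2.91%, and 0% (0 of 171 cells) and 1.94% after thinning. The *Pdgfra* class held 3.35 and 22.1 CPM, with intervals that overlap those of the microglial 2.70 and 11.9. After thinning, 0% of 168 and 6.70% of 194 precursors held a *Ret* UMI.

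*Gfra1* (chromosome 19, 58235604 to 58455909), the coreceptor that binds GDNF, was highest by the mean in *Chat* and *Nmb* neurons and also appeared in the oligodendrocyte lineage. The *Chat* class held 106 CPM [42.5 to 218] and 406 CPM [334 to 488], and the *Nmb* class 126 CPM [50.6 to 259] and 183 CPM [112 to 283], which overlap in the untreated library and not in the other. *Pdgfra* cells gave 63.7 and 76.8 CPM, *Slc17a6* cells 47.8 and 57.2, and *Mog* cells 42.4 and 35.8, with overlapping intervals between neighbours in both libraries. Inhibitory neurons had 4.47 CPM from 1 untreated UMI and 39.8 CPM in the 4OH-tamoxifen library, and the remaining classes lay at 15.5 CPM or lower. In precursors 14.3% and 16.0% of thinned cells (24 of 168 and 31 of 194) held a *Gfra1* UMI, and in oligodendrocytes 8.54% and 6.07% of 164 and 659, against 0.585% and 3.40% of 171 and 206 thinned microglia. Without thinning the shares were 18.8% and 13.6% in precursors, 27.3% and 19.0% in oligodendrocytes and 3.37% and 2.59% in microglia, whose depth is lower than that of oligodendrocytes (median 8639 and 6676 UMIs) and higher than that of precursors (3078 and 1777). An antisense gene overlaps 7.60% of its exon bases.

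*Gfra2* (chromosome 14, 70890120 to 70979838), the coreceptor that prefers neurturin, had another place. It was highest by the mean in inhibitory neurons, at 44.7 CPM [21.5 to 82.3] and 45.7 CPM [31.1 to 64.9], and overlapped the *Slc17a6* class (15.9 and 52.0 CPM). In the *Chat* class it had 1 UMI in each library (15.1 and 3.62 CPM), in the *Nmb* class 0 and 3, and in the *C1qa* class 0 in both (limits 4.04 and 3.97 CPM). *Pdgfra* cells held 11.7 and 19.4 CPM, endothelial cells 6.95 and 7.54, astrocytes 2.64 and 6.81, and oligodendrocytes 0.642 and 0.456. Among inhibitory neurons 18.8% and 14.8% of cells had a UMI, 6.25% and 7.01% after thinning, and microglia had none of 178 and 309.

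*Ntrk2* (chromosome 13, 58806569 to 59133970) encodes the BDNF receptor TRKB, which astrocytes make largely as a form without the kinase. Astrocytes led with 942 CPM [894 to 992] and 903 CPM [867 to 940], clear of every other class in both libraries. Precursors followed by the mean of both libraries with 344 and 292 CPM, and the neuron classes ranged from 159 to 252 CPM untreated and from 224 to 333 CPM in the 4OH-tamoxifen library, each overlapping its neighbour in the order. In the 4OH-tamoxifen library the *Chat* class (333 CPM) stood above precursors. *C1qa*, *Mog* and *Cldn5* cells held 48.5 and 95.3, 46.9 and 64.8, and 36.1 and 60.3 CPM. A UMI was found in 89.3% and 81.8% of astrocytes (median depth 2599 and 1980) and in 20.2% and 19.7% of microglia. Thinning left 83.9% and 82.6% of 473 and 610 astrocytes, with 68 and 668 left out, and 7.60% and 16.5% of microglia. Thinned oligodendrocytes stood at 9.76% and 12.6%, above the microglial share in the untreated library and below it in the 4OH-tamoxifen library, with overlapping intervals in both.

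*Ntrk3* (chromosome 7, 78175959 to 78738012), the receptor of neurotrophin-3, was shared by neurons, astrocytes and precursors. The *Nmb* class had 396 CPM [248 to 599] and 275 CPM [186 to 393], and the *Chat* class 212 CPM [116 to 355] and 410 CPM [338 to 492], so that their order turns between libraries while their intervals overlap in both. *Aqp4*, *Slc17a6*, *Slc32a1* and *Pdgfra* cells then fell within 132 and 180 CPM in both libraries, neighbours overlapping. Below them stood a clear gap to *C1qa* (5.39 and 13.2 CPM), *Cldn5* (2.78 and 11.3) and *Mog* cells (3.85 and 6.62). Astrocytes with a UMI made up 35.7% and 28.6%, or 24.5% and 28.2% after thinning, against 2.25% and 2.59% of microglia, or 0.585% and 3.40%.

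*Ngfr* (chromosome 11, 95568818 to 95587735), the receptor that all neurotrophins bind, was sparse: 75 UMIs in all gated cells. Inhibitory neurons held 35.8 CPM [15.5 to 70.5] and 47.2 CPM [32.3 to 66.6] from 8 and 32 UMIs. The *Slc17a6* class had 0 and 10 UMIs (limit 47.8 CPM, and 52.0 CPM), the *Chat* class 1 and 5 UMIs, and the *Nmb* class 0 in both, where 3 counts would be 53.9 and 27.5 CPM. No microglial cell had a UMI, and 15.6% and 15.4% of inhibitory neurons did (0% of 32 and 8.92% of 157 after thinning). Non-neuronal classes stayed at 5.30 CPM or lower.

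*Cntfr* (chromosome 4, 41657498 to 41697089), the ligand-binding subunit for ciliary neurotrophic factor, led in astrocytes with 250 CPM [226 to 277] and 190 CPM [174 to 208], clear of the *Chat* class (90.7 and 109 CPM) in both libraries. *Nmb* cells held 71.9 and 64.2 CPM, *Slc32a1* cells 40.3 and 72.3, and *Slc17a6* cells 0 and 67.6, where 3 untreated counts would be 47.8 CPM. *Mog* (28.2 and 33.3 CPM) and *Pdgfra* cells (30.2 and 23.8) overlapped each other, and *Cldn5* and *C1qa* cells came last at 8.34 and 15.1, and 8.09 and 10.6 CPM. *Cntfr* UMIs were in 49.0% and 31.5% of astrocytes, 39.7% and 29.2% after thinning, beside 3.37% and 2.59% of microglia (2.92% and 2.43%).

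*Lifr* (chromosome 15, 7090614 to 7197489), the signalling subunit used by both cytokines, was highest by the mean in 2 unlike classes. *Chat* cells held 75.5 CPM [24.5 to 176] and 192 CPM [144 to 251], and astrocytes 109 CPM [92.9 to 127] and 107 CPM [95.3 to 121]. These overlap in the untreated library and not in the other. In the untreated library both also overlap the *Nmb* class, at 53.9 CPM [11.1 to 158]. All remaining classes overlapped their neighbours at mean levels from 36.1 down to 15.9 CPM, among them the *Cldn5* class at 36.1 and 28.9 CPM. The share of astrocytes with a UMI was 27.0% and 19.3%, or 20.5% in each library after thinning, and in microglia 3.93% and 5.83%, or 1.75% and 4.85%.

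**Figure D2:**
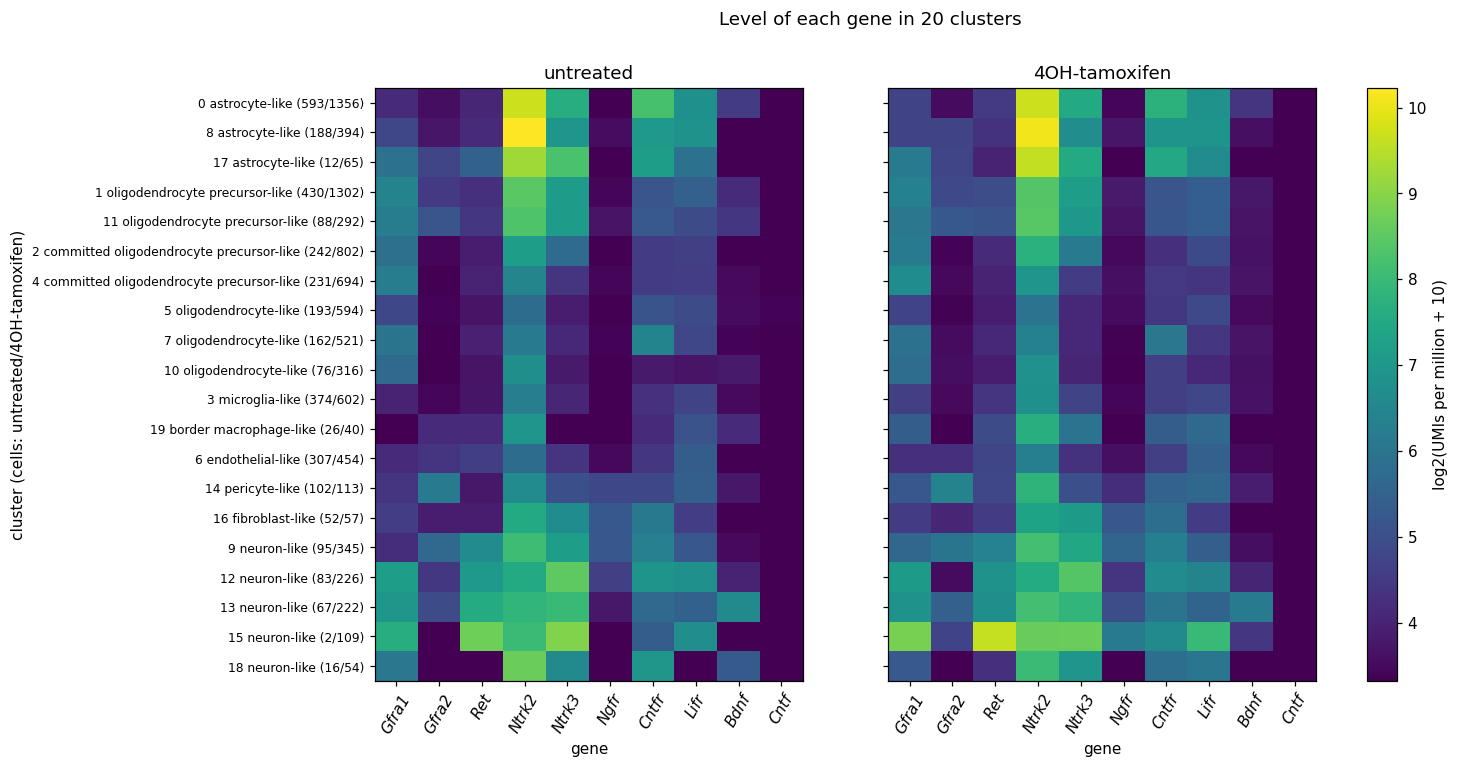
log2 of CPM plus 10 (colour) for the 10 members (columns) in the 20 clusters (rows, with untreated and 4OH-tamoxifen cells in brackets), one panel per library; colours are to be read down a column. *Ret* is brightest in the neuron cluster 15, with 2 untreated and 109 4OH-tamoxifen cells, *Ntrk2* in the astrocyte-like clusters 0, 8 and 17, and *Cntf* is dark throughout.

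The *Chat* class joins cells of different clusters, and their mix differs between libraries. In the untreated library 10 of its 11 cells lay in a cluster led by *Miat* and *Rgs11* and 1 in a cluster led by *Slc18a3*, *Slc5a7* and *Chodl*, whereas in the 4OH-tamoxifen library 25 lay in the first, 20 in the second and 1 in the cluster led by *Nmb*. Both clusters showed 5 of 5 cholinergic markers. The cluster led by *Slc18a3* had 2 untreated and 109 4OH-tamoxifen cells, so its cell state and its library cannot be told apart. Within the 4OH-tamoxifen *Chat* class *Ret* was at 802 CPM [681 to 938] in the *Slc18a3*-led and 91.0 CPM [36.6 to 187] in the *Miat*-led cells, where the median depth was 9858 and 2911 UMIs. *Gfra1* showed the same order, 486 CPM [393 to 595] against 234 CPM [139 to 370], as did *Ntrk2* (424 against 130 CPM), while the intervals of *Lifr* (233 [170 to 311] against 91.0 [36.6 to 187] CPM) overlap. *Ntrk3* was at 419 and 377 CPM and *Cntfr* at 93.1 and 117 CPM, with overlapping intervals. The long noncoding RNA *Meg3* stood at 8814 CPM in the former and 47123 CPM in the latter, and *Malat1*, a nuclear RNA, at 9430 and 101390 CPM, and the part of such RNA differences in these values was not tested. Of the 16 *Ret* UMIs in the untreated *Chat* class, 13 came from its 1 *Slc18a3*-led cell. In the *Miat*-led part the libraries were close for *Ret* (70.5 and 91.0 CPM from 3 and 7 UMIs) and overlapped for *Gfra1* (94.0 and 234 CPM from 4 and 18). *Ntrk3* differed there, at 94.0 CPM [25.6 to 241] untreated and 377 CPM [252 to 541] in the 4OH-tamoxifen library, from 4 and 29 UMIs, but over all cells of that cluster it was at 359 CPM [298 to 429] and 321 CPM [278 to 368], from 122 and 203 UMIs, which overlap. *Malat1* stood at 57762 CPM in the untreated and 101390 CPM in the 4OH-tamoxifen *Miat*-led *Chat* cells, and its part in these values was not tested.

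Whole clusters, with gated and other cells, show further cell types. In the oligodendrocyte lineage *Ntrk3* was at 128 and 133 CPM in precursor-like cells, 43.0 and 60.9 in the committed cluster led by *Bmp4* and *Gpr17*, 11.1 and 13.4 in the committed cluster led by *Pdcd4*, and 4.27 to 7.23 in the oligodendrocyte-like clusters. *Gfra1* did not follow that course: it was at 74.4 and 71.7 CPM in precursors, 48.6 and 62.0 in the *Bmp4*-led and 65.4 and 92.0 in the *Pdcd4*-led committed cells, 52.9 and 50.6 in the oligodendrocyte-like cluster led by *Opalin*, 41.2 and 45.0 in that led by *Tmem2*, and 18.04 and 16.3 in that led by *Hapln2* and *Klk6*. *Cntfr* was at 77.3 and 57.0 CPM in the *Opalin*-led and 24.4 and 11.6 in the *Hapln2*-led cluster. Among astrocytes the cluster led by *Myoc* and *Gfap* held more *Ntrk2* than that led by *Slc7a10* (1190 and 1083 against 818 and 817 CPM) and less *Cntfr* (124 and 110 against 288 and 206 CPM). *Gfra2* had its highest level in pericyte-like cells, 62.1 and 75.3 CPM, and *Ngfr* stood at 27.7 and 26.4 CPM in fibroblast-like cells. In the *Slc18a3*-led neuron cluster *Ngfr* had 60 UMIs (61.1 CPM) in the 4OH-tamoxifen library and 0 in its 2 untreated cells.

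Classes were compared in 9 contrasts on the 18 class-by-library sums, with the library as a block, by the quasi-likelihood test of edgeR over 12184 genes. A gene passed at a Benjamini-Hochberg adjusted p under 0.05. The replicates of a class are the 2 libraries, and the spread was shared by all genes. Fold changes are log2 values. Their standard error (SE) is back-calculated, as the size of the fold change over the square root of its F statistic. Beside them stands the ratio of levels within the untreated and the 4OH-tamoxifen library, after 10 CPM is added to both sides. These ratios use total UMIs, without the scaling of the fit.

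The first contrast asks what sets cholinergic neurons apart from inhibitory ones. *Gfra1*, *Ret*, *Lifr* and *Ntrk3* were higher in the *Chat* class and *Gfra2* was lower: 5 of 9 tested members passed, against 12.4% of all genes. *Gfra1* differed by a log2 fold change of 3.17 (SE 0.34, adjusted p 1.34e-18; within libraries 3.0 and 3.06) and *Ret* by 2.50 (SE 0.28, adjusted p 2.03e-16; 1.71 and 2.86). *Lifr* differed by 2.11 (SE 0.38, adjusted p 1.13e-06; 1.4 and 2.15) and *Ntrk3* by 0.84 (SE 0.26, adjusted p 0.0159; 0.62 and 1.14). *Gfra2* rests on 2 UMIs in the *Chat* class, and its level there was 0.129 times that of inhibitory neurons, with a counting interval from 0.0151 to 0.495 (adjusted p 0.00487; -1.12 and -2.03). The median log2 fold change of the tested members was 0.84 and that of all genes -0.16. Scaling by total UMIs or by DESeq2 moved the latter by 0.18 and 0.19, and the share of passing genes higher in the *Chat* class from 33.3% to 54.1% and 52.8%. In an alternative chosen after seeing the data, without the *Slc18a3*-led cells, *Gfra1* (2.14) passed as higher in the *Chat* class and *Ntrk2* as lower (165 and 130 CPM in the *Miat*-led *Chat* cells against 242 and 274 CPM in inhibitory neurons). In that alternative *Ret* was at -0.24, *Lifr* at 1.03, *Ntrk3* at 0.36 and *Gfra2* at -2.85. *Gfra2* also did not pass in DESeq2 or with at most 10% mitochondrial UMIs, nor *Ntrk3* with that limit or without the library block.

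Against the *Slc17a6* class the same receptors were higher in cholinergic neurons. *Ret*, *Gfra1*, *Lifr* and *Ntrk3*, 4 of 9 members tested, passed beside 5.01% of all genes. *Ret* had a log2 fold change of 2.67 (SE 0.37, adjusted p 9.83e-11), which comes from the 4OH-tamoxifen library (3.86 within it) more than from the untreated (0.32). The values were 2.53 for *Gfra1* (SE 0.40, adjusted p 6.65e-08; 1.0 and 2.63), 2.2 for *Lifr* (SE 0.50, adjusted p 0.000519; 1.72 and 1.97) and 1.05 for *Ntrk3* (SE 0.32, adjusted p 0.0239; 0.53 and 1.17). Members had a median of 1.05 and all genes of 0.01. Without the *Slc18a3*-led cells, a choice made after seeing the data, 0 members passed in edgeR and 3 had an unadjusted p under 0.05, with *Gfra1* at 1.49, *Ret* at -0.083, *Lifr* at 1.11 and *Ntrk3* at 0.56. DESeq2 on all cells passed 2, *Gfra1* and *Lifr*, and a limit of 10% mitochondrial UMIs left 2, *Gfra1* and *Ret*. *Ntrk3* did not pass without the library block, nor *Lifr* with 2 UMIs of the gate. With neurons allowed UMIs of the non-neuronal gates, also chosen after seeing the data, 7 passed, with *Bdnf*, *Cntfr* and *Gfra2* added.

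Retrotrapezoid neurons, the *Nmb* class, differed from inhibitory neurons in *Bdnf*, *Gfra1* and *Ngfr*, 3 of 9 members tested beside 3.15% of all genes. *Bdnf* had 17 UMIs against 1, a ratio of 93.1 with a counting interval from 14.6 to 3890 (adjusted p 6.29e-07; 3.32 and 3.39 within the libraries). *Gfra1* was higher by 2.21 (SE 0.46, adjusted p 0.000162; 3.23 and 1.96). For a class at 0 UMIs a floor of 3 counts over both libraries was set. The resulting bound leaves out the counting error of the other class. *Ngfr*, at 0 UMIs in the *Nmb* class, was by this bound 2.44-fold lower there than in inhibitory neurons (adjusted p 0.0395). It did not pass in DESeq2, with total UMIs as the scale, without the library block, with gates alone, with 2 UMIs of the gate or with stricter cell filters. Medians were -0.18 for the members and -0.36 for all genes, a background that moved by 0.27 with total UMIs and 0.34 with DESeq2. Of all genes passing, 28.4% were higher in the *Nmb* class, and 53.5% and 66.5% with those scalings. At a limit of 10% mitochondrial UMIs per cell 0 members passed in edgeR, and 3 had an unadjusted p under 0.05, with *Gfra1* at 3.06. That limit left 3 and 7 *Nmb* cells and 6 and 99 *Slc32a1* cells. With neurons allowed UMIs of the non-neuronal gates, chosen after seeing the data, the *Nmb* class had 34 and 73 cells and 6 members passed, with *Gfra2*, *Ntrk3* and *Ret* added.

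Between the *Nmb* and *Slc17a6* classes 0 of 9 members passed in edgeR, against 1.05% of all genes, and 0 passed in DESeq2. With neurons allowed UMIs of the non-neuronal gates, an alternative chosen after seeing the data, *Bdnf* and *Ngfr* passed. At an unadjusted p under 0.05 there were 3 in each tool. In edgeR these were *Gfra1* (log2 fold change 1.56, SE 0.51), *Ntrk3* (0.92, SE 0.36) and *Ngfr*, by the bound 2.15-fold lower in the *Nmb* class. Median log2 fold changes were 0.39 and -0.06, and the share of passing genes higher in the *Nmb* class was 36.7%, or 56.6% in DESeq2. The classes hold 164644 and 255121 UMIs in all, and the part of depth in this count was not tested.

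Astrocytes differed from oligodendrocyte precursors in 6 of 9 members, beside 35.4% of all genes. *Cntfr* (log2 fold change 3.44, SE 0.26, adjusted p 1.65e-37; 2.69 and 2.57 within the libraries), *Lifr* (2.00, SE 0.25, adjusted p 6.62e-14; 1.51 and 1.32) and *Ntrk2* (1.93, SE 0.20, adjusted p 2.09e-20; 1.43 and 1.59) were higher in astrocytes, so *Cntfr* and *Lifr*, 2 of the subunits of the ciliary neurotrophic factor receptor, lay on the astrocyte side. *Ntrk3* was higher by 0.65 (SE 0.21, adjusted p 0.00746; 0.20 and 0.29), and no longer passed with total UMIs as the scale, at 0.28. *Gfra1* (-2.01, SE 0.29, adjusted p 5.55e-11; -1.80 and -1.77) and *Gfra2* (-1.29, SE 0.51, adjusted p 0.0352; -0.78 and -0.81) were lower in astrocytes. The *Gfra2* difference did not pass in DESeq2 or, like that of *Ntrk3*, without the library block, with gates alone or with stricter cell filters, nor did it with 2 UMIs of the gate. The member median was 0.65 and that of all genes 0.02, which moved by -0.36 with total UMIs, as did the share of passing genes higher in astrocytes, from 52.2% to 30.0%.

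Against oligodendrocytes, astrocytes were higher in 7 members and lower in *Gfra1*, so 8 of 9 passed beside 50% of all genes (6089 of 12184). The largest of these fold changes was that of *Ntrk3* (4.63, SE 0.28, adjusted p 6.46e-60; 3.65 and 3.39 within the libraries), followed by *Ntrk2* (3.82, SE 0.22, adjusted p 4.10e-67; 4.07 and 3.61). *Lifr* (2.60, SE 0.24, adjusted p 3.57e-26; 2.09 and 2.30) and *Cntfr* (2.58, SE 0.22, adjusted p 1.14e-31; 2.77 and 2.21) were higher too. *Gfra2* had 22 UMIs against 3 in oligodendrocytes, a ratio of 10.5 with a counting interval from 3.15 to 54.7 (adjusted p 0.000538; 0.25 and 0.68). *Bdnf* (1.49, SE 0.55, adjusted p 0.0147; 0.64 and 0.52) and *Ret* (0.92, SE 0.39, adjusted p 0.0406; 0.31 and 0.58) are differences between levels under 13 CPM, and neither passed with at most 10% mitochondrial UMIs. *Ret* also did not pass in DESeq2, with the newer edgeR method, without the library block, with a stricter minimum of genes, with 2 UMIs of the gate or with looser neuron gates, nor *Bdnf* with gates alone. *Gfra1* was lower in astrocytes (-1.74, SE 0.27, adjusted p 1.69e-09; -1.30 and -0.84). Members had a median of 2.58 and all genes of 0.06, or 0.29 with total UMIs and 0.21 with DESeq2, and of all passing genes 51.3% were higher in astrocytes, 63.6% with total UMIs.

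Precursors differed from oligodendrocytes in 5 of 9 members, beside 44.6% of all genes. *Ntrk3* (3.97, SE 0.29, adjusted p 1.42e-39; 3.45 and 3.10 within the libraries) and *Ntrk2* (1.89, SE 0.22, adjusted p 2.61e-17; 2.64 and 2.02) were higher in precursors. *Gfra2* was too, with 29 UMIs against 3 and a ratio of 33.2 (counting interval 10.3 to 170, adjusted p 3.0e-08; 1.03 and 1.49). *Ret* was higher in precursors by 1.05 (SE 0.44, adjusted p 0.0410), although its ratio within the untreated library was -0.12 and within the other 1.09, and did not pass in DESeq2, with the newer edgeR method, without the library block or the low-count filter, with any other form of the gates run, or with stricter cell filters. *Cntfr* was lower, with -0.86 (SE 0.30, adjusted p 0.0107), with ratios of 0.072 and -0.36, and did not pass with total UMIs (-0.25), in DESeq2 or with gates alone. *Gfra1* did not pass (0.28, SE 0.25), but did with total UMIs as the scale. The medians were 1.05 and 0.06, the latter 0.65 with total UMIs and 0.17 with DESeq2. Of all passing genes 51.1% were higher in precursors, 78.2% with total UMIs and 57.8% with DESeq2. DESeq2 passed 3 members, *Gfra2*, *Ntrk2* and *Ntrk3*.

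Endothelial cells and microglia were both low in these genes, and 3 of 9 members passed, near the 30.6% of all genes. *Gfra2*, at 0 UMIs in microglia and 5 and 6 in endothelial cells, was by the bound 3.62-fold higher in the latter (adjusted p 0.00732, and 0.76 and 0.81 within the libraries). The endothelial class holds pericyte markers. *Ntrk2* was lower in endothelial cells (-0.88, SE 0.29, adjusted p 0.00945; -0.34 and -0.58), and did not pass in DESeq2 or with total UMIs (-0.56). *Bdnf* passed as lower in endothelial cells on 0 UMIs there and 2 and 3 in microglia (adjusted p 0.0432, and -0.34 and -0.48 within the libraries). By the bound it was 1.69-fold lower, and with so few counts a difference is not settled. It did not pass with total UMIs, with gates alone or without the low-count filter. With a stricter minimum of genes per cell 1 member, *Gfra2*, passed. The median of the members was 0.02, or -0.33 with genes at 0 set to their bound or left out, and that of all genes -0.07, which total UMIs moved by 0.29. Higher in endothelial cells were 47.3% of all passing genes, or 65.4% with total UMIs.

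The mean of the 4 neuron classes was then set against the mean of astrocytes, precursors and oligodendrocytes. *Ret*, *Gfra2*, *Ntrk3* and *Gfra1* were higher in the neuron mean and *Ntrk2* was lower, 5 of 9 members beside 54.7% of all genes, so the share is near the background. By mean CPM of both libraries, of these only *Ret* kept its direction in every pair of classes. *Gfra1* was at 22.1 in inhibitory neurons and 70.3 in precursors. *Gfra2* was at 9.37 in *Chat* and 13.8 in *Nmb* cells and 15.6 in precursors. *Ntrk2* was at 191 to 280 in the neuron classes and 55.8 in oligodendrocytes. *Ret* had a log2 fold change of 3.24 (SE 0.24, adjusted p 6.92e-39; 3.48 and 2.47 within the libraries), *Gfra2* of 1.88 (SE 0.59, adjusted p 0.00320; 0.77 and 1.08) and *Ntrk3* of 1.57 (SE 0.16, adjusted p 7.15e-21; 1.57 and 1.78). *Gfra1* followed with 0.85 (SE 0.21, adjusted p 0.000128; 0.47 and 1.46), and did not pass with gates alone or at most 10% mitochondrial UMIs, nor *Gfra2* with 2 UMIs of the gate required. *Ntrk2* had -0.64 (SE 0.14, adjusted p 1.09e-05), with -0.24 and 0.061 within the libraries, and was at -0.029 and did not pass with total UMIs as the scale. The members' median was 1.04, or 0.94 without *Ngfr*, which has no bound here, and that of all genes was -0.40, which total UMIs moved by 0.57 and DESeq2 by 0.24. Among all passing genes 35.5% were higher in neurons, or 62.4% with total UMIs.

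Between the libraries no test can be made with 1 library per condition, and ratios of 4OH-tamoxifen over untreated CPM are given with exact conditional intervals for counting error. Over the 9 classes the members gave 73 ratios with UMIs in both libraries, and 13 had an interval that left out 1 (17.8%), beside 11% for all genes tested (9927 of 90623). Genes differ in their counts, so these shares are given as a description. In the *Chat* class these were *Gfra1* with 3.84 [1.80 to 9.76], *Lifr* with 2.54 [1.02 to 8.15], *Ret* with 2.43 [1.45 to 4.35] and *Ntrk3* with 1.94 [1.11 to 3.65], the class in which the share of *Slc18a3*-led cells went from 1 of 11 to 20 of 46. The *Slc17a6* class had lower *Ret* (0.163 [0.0502 to 0.470]) and *Bdnf* (0.280 [0.0777 to 0.972]), from 5 untreated cells, of which 2 held the 12 *Ret* UMIs. In that class the cholinergic list went from 526 to 270 CPM and the precursor list from 414 to 234 CPM. The part of such RNA in these 2 ratios was not tested. Over all cells of the *Nmb*-led cluster, where most of the class lay, *Ret* was at 180 and 99.5 CPM from 99 and 92 UMIs and *Bdnf* at 89.0 and 61.6 CPM from 49 and 57. The *Ret* intervals there, 146 to 219 and 80.2 to 122 CPM, do not overlap. *Ntrk2* was higher in the 4OH-tamoxifen library in *C1qa* (1.96 [1.30 to 3.02]), *Cldn5* (1.67 [1.01 to 2.80]) and *Mog* cells (1.38 [1.07 to 1.81]), which hold little of it. In astrocytes, where its level was highest, the ratio was 0.959 [0.898 to 1.02]. The astrocyte list, 6 of 7 with UMIs and *Aqp4* at 0 by the gate, also summed higher in the 4OH-tamoxifen library in these classes, from 700 to 1232 CPM in *C1qa*, 621 to 800 in *Cldn5* and 329 to 484 in *Mog* cells. Its most abundant gene was *Aldoc* in the untreated and *Slc1a2* in the other library. The list of 6 neuron markers, all with UMIs, went there from 154 to 427, 153 to 288 and 139 to 210 CPM, and the part of such RNA in the *Ntrk2* values was not tested. *Cntfr* in astrocytes was lower, 0.761 [0.665 to 0.872], from 379 and 503 UMIs. In that class the gate gene *Aqp4* went from 3991 to 3013 CPM and the astrocyte list from 13377 to 12228 CPM. The oligodendrocyte list there went from 2433 to 3352 CPM and the neuron list from 208 to 468 CPM. The part of these shifts in the *Cntfr* ratio was not tested. *Gfra1* in inhibitory neurons (8.90 [1.47 to 364]), *Ret* in precursors (6.58 [1.64 to 57.3]) and *Lifr* in microglia (2.52 [1.01 to 7.15]) complete the list, and rest on 1, 2 and 7 untreated UMIs. Over all cells of the main cluster of each class the levels lay closer: *Gfra1* at 8.81 and 38.8 CPM from 7 and 60 UMIs, *Ret* at 9.48 and 21.1 CPM from 13 and 52, and *Lifr* at 16.7 and 17.7 CPM from 27 and 28. The *Gfra1* intervals stayed apart (3.54 to 18.2 and 29.6 to 49.9 CPM), and those of *Ret* overlapped (5.05 to 16.2 and 15.7 to 27.6 CPM). In the same direction the neuron list, led by *Stmn2*, went from 314 to 619 CPM in *Pdgfra* cells, and the cholinergic list from 58.2 to 202 CPM in *Slc32a1* cells (3 and 4 of 5 with UMIs, led by *Slc5a7* and *Prph*, *Chat* at 0 by the gate). Their part in these ratios was not tested.

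Receptor partners were also counted in the same cells, where a UMI of both is needed and shallow cells are missed. Joint counts follow in part from the single counts, and whether partners went together beyond them was not tested. In *Chat* cells *Ret* was found in 4 of 11 and 26 of 46, *Gfra1* in 5 and 29, and both in 3 and 19. In *Nmb* cells *Ret* was found in 7 of 10 and 7 of 33, *Gfra1* in 5 and 11, and both in 4 and 4. Of 32 and 169 inhibitory neurons, 10 and 36 held *Ret*, 6 and 25 *Gfra2*, and 2 and 8 both, while *Gfra1* was found in 1 and 13 and together with *Ret* in 0 and 2. *Gfra1* was found in 45 of 165 and 127 of 670 *Mog* cells, *Ret* in 7 and 22, and both in 1 and 4. Of 541 and 1278 astrocytes, 265 and 402 held *Cntfr*, 146 and 247 *Lifr*, and 80 and 77 both, and *Ntrk2* was found in 483 and 1046, *Ntrk3* in 193 and 365, and both in 171 and 298. *Bdnf* was found in 3 of 10 and 8 of 33 *Nmb* cells, its receptor *Ntrk2* in 7 and 19, and both in 3 and 6.

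For each tested member the 3 genes with the most similar levels were sought among 8498 genes with at least 50 CPM in some sum, by Pearson's r of log2 CPM plus 10 over the 18 sums. These sums share libraries and differ in depth, so r is a description. *Bdnf* was most like *Adcyap1* (r = 0.89), *Efcab10* (0.89) and *Pnmal1* (0.89). For *Ret* they were *Gltscr1l* (0.95), *Pappa* (0.94) and *Tnpo2* (0.93), for *Gfra1* *Bcat1* (0.85), *Sorcs3* (0.84) and *Ssbp2* (0.81), and for *Gfra2* *Slc8a2* (0.91), *Col25a1* (0.88) and *Hrh3* (0.86). *Ntrk2* stood with *Scg3* (0.96), *Pou3f2* (0.95) and *Trim9* (0.94), *Ntrk3* with *Lrrn2* (0.96), *Klhl9* (0.96) and *Rgs7* (0.96), and *Ngfr* with *Kcnab3* (0.99), *Cck* (0.95) and *Lypd6* (0.94). *Cntfr* was nearest to *Slc20a1* (0.91), *Sel1l3* (0.89) and *Phka1* (0.88), and *Lifr* to *Col16a1* (0.84), *Nr3c2* (0.84) and *Capn2* (0.84). *Sorcs3*, beside *Gfra1*, is itself a sortilin family gene of the list that follows.

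A list of 56 further genes of these pathways held other ligands, receptors, processing factors and signal relays, of which 38 were tested. Several ligands were nearly absent from the gated cells: *Gdnf* had 2 UMIs, *Artn* 5, *Pspn* 0, *Ntf3* 6 and *Lif* 5, and the receptor *Gfra3* had 0. The neurturin gene *Nrtn* reached 121 UMIs, most of them in oligodendrocytes (8.34 and 12.5 CPM). In the *Chat* against *Slc32a1* contrast 7 list genes passed, 3 higher and 4 lower, in *Chat* against *Slc17a6* 4 (2 and 2), in *Nmb* against *Slc32a1* 3 (2 and 1), and in *Nmb* against *Slc17a6* 1, *Vgf*. Among glia 18 passed between astrocytes and precursors (11 higher in astrocytes), 19 between astrocytes and oligodendrocytes (13 higher) and 20 between precursors and oligodendrocytes (12 higher). Endothelial cells and microglia differed in 12 (8 higher in endothelial cells), and neurons and macroglia in 19 (10 higher in neurons). Of all genes tested, the shares passing in these contrasts were 12.4, 5.01, 3.15, 1.05, 35.4, 50, 44.6, 30.6 and 54.7%. The list's median log2 fold changes, in the order of these contrasts, were -0.15, 0.13, -0.28, 0.02, 0.35, 0.52, 0.19, -0.21 and -0.34. With genes at 0 in a class set to their bound or left out they were -0.15, 0.17, -0.14, 0.14, 0.35, 0.52, 0.18, -0.21 and -0.11.

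In the CNTF and LIF group the shared signal transducer *Il6st* led in astrocytes at 166 and 165 CPM. Its log2 fold change was 2.51 over oligodendrocytes (SE 0.22, adjusted p 3.55e-28) and 2.38 over precursors (SE 0.24). All 3 chains of the receptor thus had UMIs in the astrocyte class, as they had in the *Chat* class. Cells with all 3 were not counted. *Lifr* was found in 146 of 541 and 247 of 1278 astrocytes, *Il6st* in 147 and 304, and both in 48 and 59. In *Chat* cells *Il6st* stood at 136 and 109 CPM, above inhibitory neurons by 1.56 (SE 0.41, adjusted p 0.00226). The oncostatin M receptor *Osmr* was found at 51.4 and 64.1 CPM in endothelial cells. It had 0 UMIs in microglia, oligodendrocytes and the 4 neuron classes. By the bound *Osmr* was 29.0-fold higher in endothelial cells than in microglia (adjusted p 3.21e-14). *Il11ra1*, the interleukin-11 receptor, was highest in *Nmb* cells at 234 and 101 CPM, above inhibitory neurons by 2.95 (SE 0.53, adjusted p 4.17e-06).

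Among neurotrophin genes, *Maged1* and *Ngfrap1* encode proteins that bind the intracellular part of NGFR. *Maged1* was higher in neurons than macroglia by 1.78 (SE 0.12, adjusted p 8.23e-46), with 755 and 1220 CPM in *Nmb* cells, and *Ngfrap1* by 0.38 (SE 0.13, adjusted p 0.00640). *Bex1*, a relative of *Ngfrap1*, was at 15.1 and 18.1 CPM in *Chat* cells against 134 and 119 in inhibitory neurons (log2 fold change -3.06, SE 0.51, adjusted p 1.37e-07). *Plat*, the plasminogen activator of a cascade that cleaves the BDNF precursor, was a gene of oligodendrocytes (236 and 200 CPM), astrocytes (174 and 132) and endothelial cells (117 and 112), with a log2 fold change of neurons over macroglia of -3.66 (SE 0.31, adjusted p 3.81e-31). *Vgf*, a BDNF-responsive neuropeptide precursor, reached 971 and 1073 CPM in *Nmb* cells and passed against the *Slc17a6* class (1.42, SE 0.26, adjusted p 2.29e-05).

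In the GDNF group *Ncam1*, an adhesion molecule that can bind GDNF with GFRA1, was lower in *Chat* cells (242 and 239 CPM) than in inhibitory neurons (546 and 578 CPM), with a log2 fold change of -1.48 (SE 0.26, adjusted p 5.04e-07). The syndecan *Sdc3*, which also binds GDNF, was highest in precursors (391 and 374 CPM) and lowest in oligodendrocytes (15.4 and 23.5 CPM), a difference of 3.64 (SE 0.24, adjusted p 2.00e-51). Of the signal relays, the adaptor *Gab1* led in oligodendrocytes (146 and 156 CPM) and had a log2 fold change of neurons over macroglia of -4.03 (SE 0.34, adjusted p 5.48e-31). *Jak1*, the kinase used by LIFR and IL6ST, led in *Chat* cells at 348 and 352 CPM, above inhibitory neurons by 1.37 (SE 0.27, adjusted p 2.14e-05).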

How the data were processed

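Per the labels the authors used bcl2fastq 2.18.0.12, Cell Ranger 2.2.0 and the mm10 (GRCm38) reference, and deposited raw counts (UMIs of each gene in each barcode), not normalized. Doublets were called by Scrublet in scanpy 1.11.5 (6 and 544 barcodes). A barcode was kept as a cell when mitochondrial UMIs made up at most 20%, hemoglobin UMIs numbered at most 50 and at least 800 genes were found. Clusters (Leiden, resolution 0.7, 25 components, 8 neighbours per library, 1915 variable genes) were named by at least 3 markers. Members and listed pathway genes were left out of the variable genes, and gate genes were not. Listed cell cycle, stress and sex genes and mitochondrial, ribosomal and hemoglobin genes were also left out. UMIs were summed per class and library and fitted in edgeR 4.0.16 (quasi-likelihood, TMM, low-count filter, R 4.3.3), with DESeq2 1.42.0 as an alternative. The fit was also run on simulated data, and the outcome is not given here. Shares carry exact binomial (Clopper-Pearson) intervals in the tables. Pathway genes named are the 2 of each sublist with the highest level and those passing in 3 or more contrasts with a log2 fold change beyond 2 in size, among genes with 20 UMIs, and ligands were named after their values were seen. Members and lists were chosen with earlier results of these data known.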

Additional observations from a re-analysis of the deposited data

Results flagged for a closer look

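Among members with at least 20 UMIs in each library over the classes compared, 5 ratios between classes took opposite signs in the libraries. Ratios are log2 of CPM plus 10, and whether the libraries differ in them was not tested. The contrasts of *Ntrk2* between neurons and macroglia and of *Cntfr* between precursors and oligodendrocytes passed above. Ratios from fewer UMIs turned too, such as *Ret* between precursors and oligodendrocytes (-0.12 and 1.09), and are not listed. *Ntrk2* between *Chat* and *Slc32a1* neurons was at -0.09 untreated and at 0.27 after 4OH-tamoxifen, and between neurons and macroglia at -0.24 and 0.06. *Cntfr* between precursors and oligodendrocytes was at 0.07 and -0.36, and between neurons and macroglia at -0.71 and 0.38. *Lifr* between neurons and macroglia was at -0.16 and 0.25.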

How the results depend on the processing

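Of 39 fold changes that passed, 17 passed with the same sign under every alternative run with a test; of their 521 alternative values 451 kept call and sign, 68 kept the sign alone and 2 turned. Of the 120 member counts, 108 stayed within 1.5 times. At most 10% mitochondrial UMIs gave 3 for *Chat* against *Slc32a1*, 2 for *Chat* against *Slc17a6* and 0 for *Nmb* against *Slc32a1*. DESeq2 gave 2 for *Chat* against *Slc17a6* and 3 for *Pdgfra* against *Mog*, where gates without clusters also gave 3. A stricter minimum of genes per cell gave 1 for *Cldn5* against *C1qa*. Alternatives chosen after seeing the data were neurons that may hold glial gate UMIs, with 7 for *Chat* against *Slc17a6*, 6 for *Nmb* against *Slc32a1* and 2 for *Nmb* against *Slc17a6*; and the *Chat* class without the *Slc18a3*-led cluster, with 2 against *Slc32a1* and 0 against *Slc17a6*, where *Ret* turned to -0.24 and -0.083. In 1 library at a time, *Ret* between precursors and oligodendrocytes ranged from -0.12 to 1.09 and *Cntfr* from -0.36 to 0.072, with the turned sign in the untreated library, and *Ntrk2* between neurons and macroglia from -0.24 to 0.061, turned in the 4OH-tamoxifen library. The cause was not tested. A library on its own allows no test: of 78 such ratios, 55 moved beyond the SE and 3 turned. These ratios add 10 CPM to both sides and use total UMIs, unlike the fitted values with TMM. A move can thus come from the scale as well as the library, and these were not told apart. Without the library block the contrasts, in order, passed 4, 3, 2, 0, 4, 7, 4, 3 and 5 members. Of 81 alternative levels 64 stayed within 1 SD, and of 36 shares, thinned or with 2 UMIs required, 13 stayed within their interval. Few cells and UMIs limit the neuron classes, with 5 untreated *Slc17a6* cells and 55612 UMIs in the untreated *Nmb* class.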
